A study of Mus musculus with 8 samples.

Results

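The genes described are 10: 8 receptor tyrosine kinase genes and 2 ligand genes through which growth factors reach the muscle stem cell (MuSC): Met and its ligand Hgf, the fibroblast growth factor (FGF) receptors Fgfr1 to Fgfr4, the insulin-like growth factor gene Igf1 with its receptor Igf1r, and the receptors Egfr and Insr. These 10 genes were taken by name from the 36047 genes to which the deposited transcripts could be matched, and all 10 passed the expression filter that left 17997 genes for testing. The cells came from male Pax7CreERT2-Rosa26nTnG (Pax7-nTnG) mice aged 5 to 6 months, in which tamoxifen-activated Cre under Pax7 control switches nuclear tdTomato to nuclear GFP. In the VA-free group 3 mice had eaten a vitamin A-free (VA-free) diet for 8 weeks and in the control group 2 mice had stayed on their normal chow, so that vitamin A and the other ingredients of the 2 foods cannot be told apart. Cells with GFP-positive nuclei were sorted from gastrocnemius and quadriceps muscle, and their RNA was split at the purification column into technical replicates A and B. Of the VA-free mice the libraries 1B, 2A, 3A and 3B were used, of the control mice both libraries each (1A, 1B, 2A, 2B), and values below keep this order. The 2 libraries of a mouse were added before any test.

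Receptor tyrosine kinases are membrane proteins that work as pairs. When a ligand binds, the partners phosphorylate each other and pass the signal to the RAS-MAPK and PI3K-AKT cascades. In resting muscle, hepatocyte growth factor is held in the matrix around the fiber and is activated after injury, and its receptor MET drives MuSCs out of deep quiescence. FGFs push activated MuSCs into division while Sprouty proteins hold that signal back, and IGF1 supports growth and fusion of their progeny.

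Between 44831232 and 88650428 estimated counts lay in a library, and a member had from 50 (Fgfr3 in control 2A) to 89952 (Fgfr4 in VA-free 1B) of them. Control 2A stood apart from control 2B of the same mouse although both held nearly the same total (53025084 and 53029345). All 10 MuSC markers were detected in both diets, and their summed level in TPM, the deposited measure per library corrected for transcript length, lay between 4225 and 4898 in VA-free libraries and between 1423 and 2391 in control libraries. Of these markers 9 of 10 were called higher and 0 lower. Many markers of other cells were lower: 10 of 10 endothelial markers, 9 of 10 tenocyte, 9 of 10 Schwann cell, 7 of 10 fibro-adipogenic progenitor, 6 of 10 pericyte and smooth muscle, 5 of 10 myofiber, 4 of 10 macrophage and 4 of 6 tested erythroid markers were called lower on the VA-free diet, whereas Col3a1 of the fibro-adipogenic and Notch3 of the pericyte list were called higher. By summed TPM the endothelial, tenocyte, Schwann cell, macrophage and erythroid lists were lower in every VA-free library. The fibro-adipogenic sum was higher (5838 to 5964 against 2879 to 4902 TPM), with Col3a1 at a mean of 5164 against 1544 TPM. Pericyte and smooth muscle sums (1294 to 1729 against 1506 to 1942) and myofiber sums (381 to 512 against 492 to 607) overlapped. No marker of these lists was at 0 in all libraries. In bulk samples such as these, fewer cells of a type and less RNA per cell cannot be told apart.

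On the VA-free diet 7 of the 10 members lay higher in every VA-free library than in every control library, and 6 passed the test with TMM scaling: Met, Fgfr1, Fgfr3, Fgfr4, Egfr and Igf1r were higher. Scaled to MuSC markers, Fgfr1 and Fgfr4 of these 6 kept the call, Met, Fgfr3 and Egfr lost it and Igf1r turned lower. None was called lower by edgeR, where 0 also fell at an unadjusted p under 0.05, and DESeq2 and limma-voom called 0 lower. Hgf, Fgfr2, Igf1 and Insr did not pass. The test was edgeR's quasi-likelihood test over 5 mice with Benjamini-Hochberg adjustment (edgeR adjusted p, threshold 0.05) on counts normalized by the trimmed mean of M values (TMM). As background, 18.9% of the 17997 genes tested were called higher and 22.5% lower, and 19.9% lay higher in every VA-free library than in every control library. The median log2 fold change of the 10 members was 0.85, beside 0.00296 over all genes tested.

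Within the VA-free diet Fgfr4 was the most abundant member by TPM. Its mean was 634 ± 26.5 TPM (SD, n = 3 mice), followed by Fgfr1 at 467 ± 24.2 and Egfr at 170 ± 17.3. Igf1 (55.3 ± 16.5) and Met (38.6 ± 2.15) came next, and their ranges over mice overlapped. Igf1r stood at 16.6 ± 0.770, Insr at 12.1 ± 0.999, Fgfr3 at 11.6 ± 2.79, Hgf at 4.4 ± 1.05 and Fgfr2 at 3.73 ± 0.539. Insr and Fgfr3, and Hgf and Fgfr2, did not separate from each other either.

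On control chow Fgfr4 (154.5 ± 1.35 TPM, SD, n = 2 mice) and Fgfr1 (117 ± 7.30) again led. Igf1 came next at 68.5 ± 7.34 TPM and then Egfr at 58.7 ± 7.25, with overlapping ranges. Below them Met stood at 11.8 ± 2.91 TPM, Insr at 8.94 ± 0.468 and Igf1r at 6.63 ± 0.881, all apart from their neighbors. Fgfr3 (3.10 ± 0.178), Fgfr2 (2.54 ± 0.926) and Hgf (2.18 ± 0.478) closed the order with overlapping ranges. The places of Igf1 and Egfr, of Igf1r and Insr, and of Hgf and Fgfr2 were thus exchanged between the diets. Of these pairs Igf1r and Insr stood apart in both, but this rested on the mean of 1.95 TPM in control 2A and 15.3 TPM in control 2B for Insr. With the first library of each mouse alone, Igf1r (6.11 TPM) lay above Insr (4.72 TPM) on control chow too, with overlapping ranges. Between the diets TPM gave larger ratios than the counts tested, with 4.11 against 2.91 for Fgfr4 and 2.50 against 1.41 for Igf1r. Over all genes, log2 of TPM plus 1 gave 5799 called higher and 2637 lower, where counts gave 3403 and 4056. The marker sums above are in TPM too.

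**Figure D1:**
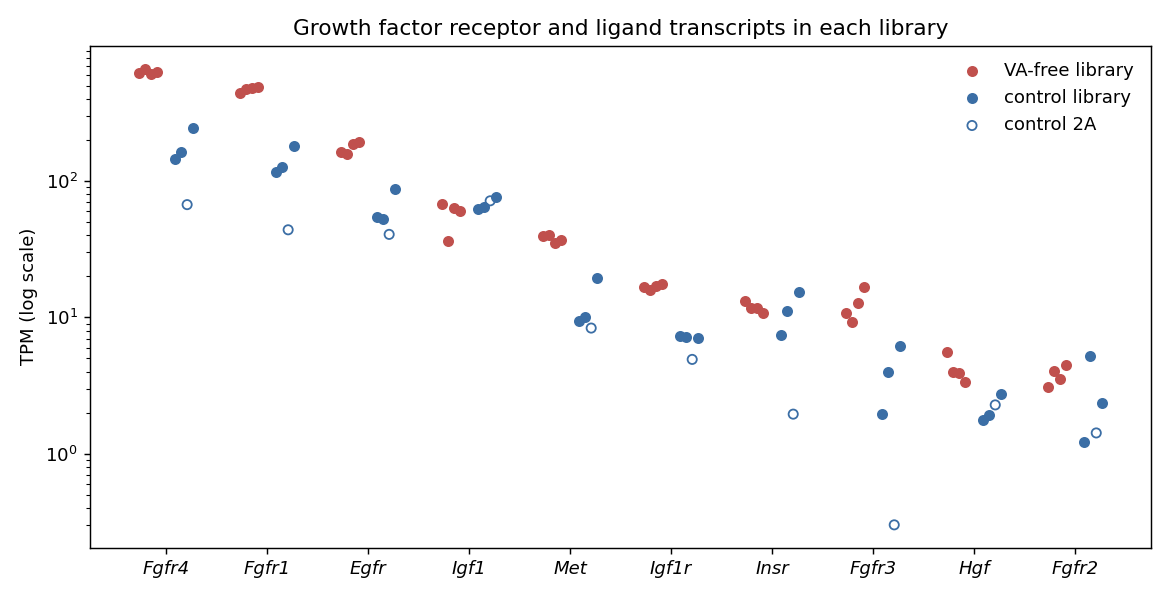
TPM on a log axis for the 10 members in each of the 8 libraries, with VA-free libraries in red, control libraries in blue and control 2A as an open circle. Fgfr4 reached 607 to 665 TPM in VA-free libraries against 67.1 to 244 in control libraries, whereas the values of Igf1, Insr and Fgfr2 overlapped between the diets, and control 2A was the lowest library for Fgfr4, Fgfr1, Egfr, Met, Igf1r, Insr and Fgfr3.

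Hgf and Met form a ligand and receptor pair. Hgf (chr5:16553495-16620152, plus strand, GRCm38) encodes the secreted ligand, made mostly by mesenchymal cells. It gave 6.81, 5.26, 4.69 and 4.29 CPM (counts scaled to TMM-normalized library size) in the 4 VA-free libraries and 2.84, 2.95, 4.06 and 4.14 CPM in the 4 control libraries. The groups did not overlap, yet they lay close, and the difference did not pass (log2 fold change 0.69 ± 0.29 SE, edgeR adjusted p = 0.103) and was -0.29 when scaled to MuSC markers. It rested on 130 to 638 counts per library.

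Met (chr6:17463800-17573980, plus strand) encodes the HGF receptor, a quiescent MuSC surface marker in mouse muscle. It gave 110, 117, 101 and 95.6 CPM in the 4 VA-free libraries and 33.3, 41.7, 39.7 and 60.5 CPM in the 4 control libraries, so that the groups stood well apart. Met was higher by 1.33 ± 0.15 on the log2 scale (2.51-fold, edgeR adjusted p = 0.000813), and by 0.34 and not called when scaled to MuSC markers (edgeR adjusted p = 0.103).

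The 4 FGF receptors differed from each other in level and in response. Fgfr4 (chr13:55152640-55168759, plus strand), a receptor characteristic of satellite cells and embryonic muscle, gave 960, 1068, 997 and 1044 CPM on the VA-free diet and 332, 372, 183 and 509 CPM on control chow. The 4 VA-free libraries were tight and lay far above the control libraries, which spread. The log2 fold change was 1.54 ± 0.12 (2.91-fold, edgeR adjusted p = 0.000309).

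Fgfr1 (chr8:25513654-25575718, plus strand) is the other main FGF receptor of MuSCs, through which FGF2 acts. Its level was 643, 704, 731 and 718 CPM in the VA-free libraries and 283, 276, 126 and 381 CPM in the control libraries, again without overlap. It was higher by 1.37 ± 0.13 on the log2 scale (2.58-fold, edgeR adjusted p = 0.000458).

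Fgfr3 (chr5:33721674-33737068, plus strand), best known as a brake on bone growth, was scarce in these cells. It gave 14.6, 14.6, 17.3 and 21.0 CPM in the VA-free libraries and 4.76, 6.32, 1.04 and 10.9 CPM in the control libraries, where control 2A held only 50 counts and control 2B 590. The log2 fold change was 1.48 ± 0.20 (edgeR adjusted p = 0.00169), and 0.48 and not called when scaled to MuSC markers (edgeR adjusted p = 0.0664). Without control 2A it was 0.98 ± 0.30 (edgeR adjusted p = 0.0377), and without control 2B 2.25 and no longer called (edgeR adjusted p = 0.0693). Of the 31-base words in its transcripts 14.9% also occurred in other genes, of which G630022F23Rik shared the largest number. Reads could thus be divided between Fgfr3 and such genes.

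Fgfr2 (chr7:130162451-133123350, minus strand), an epithelial and mesenchymal receptor, did not pass the test. Its values were 4.92, 5.62, 6.37 and 7.51 CPM on the VA-free diet and 3.39, 9.29, 3.50 and 3.88 CPM on control chow. Control 1B lay above every VA-free library and the other 3 control libraries below. The log2 fold change was 0.25 ± 0.32 (edgeR adjusted p = 0.570), and -0.75 when scaled to MuSC markers. It became 0.75 and called (edgeR adjusted p = 0.0491) without control 1B, and turned to -0.15 without control 1A.

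An FGF receptor is tuned to its ligands by the exon that encodes the end of the immunoglobulin-like domain nearest the membrane. Fgfr1, Fgfr2 and Fgfr3 carry a pair of such exons, IIIb and IIIc, of which a transcript uses one, whereas Fgfr4 has a single exon at that place. Between the 4 receptors no 31-base word was shared in any transcript, 31 bases being the default word length of the Kallisto program.

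Among coding Fgfr1 transcripts with one of the 2 exons, the IIIb form took 34.4%, 32.6%, 37.6% and 34.5% of the TPM in the VA-free libraries. The control libraries gave 27.7%, 36.4%, 51.2% and 27.9%. The IIIc form thus held the larger part in every library but control 2A, and the diets overlapped. The exon for the first immunoglobulin-like domain was present in 27.0% to 35.5% of these Fgfr1 transcripts on the VA-free diet and in 19.6% to 41.7% on control chow. For Fgfr3 the IIIb share was 13.3% to 28.9% in VA-free libraries, 14.8% in control 2B and 0 in the other control libraries. For Fgfr2, with 168 to 461 counts per library, it ranged from 3.78% to 32.3% and from 0 to 41.5%. These shares are estimates that Kallisto made from 75 bp single-end reads, without an error of their own, and were not tested.

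Igf1 and Igf1r are the other pair of a ligand and its receptor. Igf1 (chr10:87858265-87937042, plus strand) encodes insulin-like growth factor 1, and gave 102, 54.6, 105 and 101 CPM in the VA-free libraries. The control libraries gave 94.7, 96.3, 143 and 108 CPM. VA-free 2A lay below all other libraries, and the rest overlapped. The log2 fold change was -0.32 ± 0.28 (edgeR adjusted p = 0.409).

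Igf1 splicing adds or skips a 52-base exon before the end of the precursor, and the included form is known in rodents as IGF1Eb or mechano growth factor. The exon lies at chr10:87915298-87915349 on the plus strand, and is shown in lower case because its inclusion divided the Igf1 transcripts of every library into parts of like size.
Igf1 52-base exon: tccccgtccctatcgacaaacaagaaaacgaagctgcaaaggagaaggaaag

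Transcripts with this exon held 45.8%, 48.7%, 51.9% and 41.3% of coding Igf1 TPM in the VA-free libraries and 54.3%, 43.3%, 46.6% and 49.8% in the control libraries, so that the diets overlapped.

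Igf1r (chr7:67952827-68233668, plus strand) encodes the receptor for both IGFs. It gave 43.9, 45.3, 45.5 and 39.5 CPM in the VA-free libraries and 30.4, 36.4, 25.5 and 33.1 CPM in the control libraries. The groups lay close without overlap, and the log2 fold change of 0.50 ± 0.13 passed (1.41-fold, edgeR adjusted p = 0.0208). Scaled to MuSC markers it turned to -0.49. The call was lost in 10 of 28 alternatives, among them the removal of a length trend (0.14, edgeR adjusted p = 0.444), the count of coding transcripts alone (0.28, edgeR adjusted p = 0.149) and leaving out any single VA-free mouse (0.48 to 0.52, edgeR adjusted p 0.0612 to 0.0724).

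Insr (chr8:3122061-3279617, minus strand), the insulin receptor gene, gave 20.1, 17.1, 14.7 and 17.1 CPM in the VA-free libraries and 18.6, 23.6, 12.6 and 26.6 CPM in the control libraries. Control 2A was the lowest and control 2B the highest of all 8, and both come from one mouse. The log2 fold change was -0.19 ± 0.17 (edgeR adjusted p = 0.405). It was 0.35 with transcript length offsets but -0.34 with the trend over transcript length removed, and neither passed.

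Egfr (chr11:16752203-16918158, plus strand) encodes the epidermal growth factor receptor. It gave 317, 326, 387 and 380 CPM in the VA-free libraries and 162, 155, 143 and 222 CPM in the control libraries, without overlap. Egfr was higher by 1.02 ± 0.13 on the log2 scale (2.02-fold, edgeR adjusted p = 0.0014), but by 0.02 and not called when scaled to MuSC markers (edgeR adjusted p = 0.882). Of its 2 main coding forms the longer (10208 bases, beside 2943 bases) held 31.4% to 35.5% of their joint TPM on the VA-free diet and 28.5% to 36.5% on control chow.

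Transcript length moved with the diet effect in these libraries, and the mean effective length of the members ran from 2204 bases (Hgf) to 5450 bases (Igf1r). Over the 17997 genes the log2 fold change rose by 0.324 for each doubling of mean effective length (Spearman rho 0.373, across genes, which are not independent replicates). With that trend removed the median log2 fold change of all genes was 0.18, and Fgfr3 (1.42 ± 0.21), Fgfr4 (1.42 ± 0.12), Fgfr1 (1.27 ± 0.12), Met (0.97 ± 0.16) and Egfr (0.76 ± 0.15) were still called. The split of calls over all genes went from 3403 higher and 4056 lower to 3862 higher and 2481 lower.

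All 10 MuSC markers were then used as the scale, so that a member was read against the MuSC transcripts of its own mouse. This scaling was chosen after the data had been seen, and it lowered the median log2 fold change of all genes to -0.98, with 2.32% of genes called higher and 57.2% lower. Fgfr4 (0.55 ± 0.12, edgeR adjusted p = 0.00453) and Fgfr1 (0.38 ± 0.12, edgeR adjusted p = 0.0298) were still higher on the VA-free diet. With TMM scaling the 10 markers themselves ran from 0.47 (Chodl) to 1.70 (Cdh15). Fgfr4 (1.54) and Fgfr1 (1.37) lay within that range, so each rose more than the marker mean but not more than every marker. The SE and adjusted p on this scale leave the spread of the markers out. Fgfr3 (0.48 ± 0.20), Met (0.34 ± 0.16) and Egfr (0.02 ± 0.12) were not called. Insr (-1.18 ± 0.20, edgeR adjusted p = 0.00132), Igf1 (-1.31 ± 0.27, edgeR adjusted p = 0.00389) and Igf1r (-0.49 ± 0.15, edgeR adjusted p = 0.0231) were lower. On this scale the 10 genes thus fell into 2 called higher, 3 called lower and 5 not called, where TMM scaling gave 6, 0 and 4. The scale shifts all genes of a mouse by the same amount, so the members kept their order. Their lower values follow from this shift and are no separate result for each gene. Whether the markers themselves are made at the same level per cell in both diets was not tested.

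**Figure D2:**
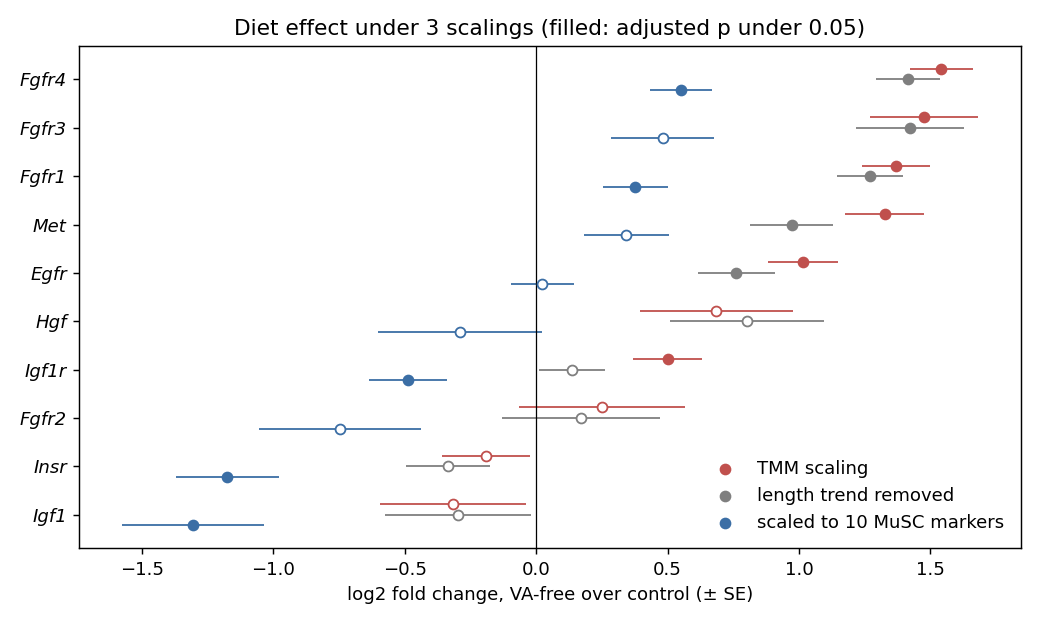
Log2 fold change, VA-free over control, with its standard error for each member under TMM scaling (red), with the length trend removed (gray) and scaled to the 10 MuSC markers (blue), from edgeR on 3 and 2 mice; filled points passed an adjusted p of 0.05. Fgfr4 and Fgfr1 are filled on all 3 scales, Igf1r turns from 0.50 to -0.49, and Igf1 and Insr are filled only against the MuSC markers.

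The A and B libraries of a mouse show how far a value can move without any difference between animals. In mouse VA-free 3 the B to A ratio of CPM stayed between -0.21 and 0.28 on the log2 scale over the 10 members. In mouse control 1 it lay between -0.07 and 1.45, with Fgfr2 the widest. In mouse control 2 it lay between -0.41 and 3.40: Fgfr3 was 10.5-fold, Fgfr1 3.03-fold, Fgfr4 2.78-fold and Insr 2.12-fold higher in B than in A, while Hgf (1.02-fold) and Fgfr2 (1.11-fold) hardly moved and Igf1 was lower in B. Of the 10 members 9 were higher in control 2B than in control 2A. Control 2A was also the library with the lowest summed MuSC markers (1423 TPM). Its macrophage markers were the highest (866 TPM), but control 2B of the same mouse gave 777 TPM, beside 228 and 207 TPM in control 1A and 1B. In all other marker lists control 2A had the lowest sum of the control libraries, as with endothelial (626 TPM) and tenocyte markers (381 TPM). The part of these differences in the result was not tested.

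Leaving out control 2A kept the same 6 genes called, with log2 fold changes of 1.24 for Fgfr4, 1.06 for Fgfr1, 1.15 for Met, 0.84 for Egfr and 0.40 for Igf1r. Leaving out control 2B instead ended the call of Fgfr3 (2.25, edgeR adjusted p = 0.0693) and Igf1r (0.55, edgeR adjusted p = 0.0896), and 4476 genes were called in all in place of 7459. With A libraries alone, only Met and Fgfr4 of the members were called (log2 fold changes 1.56 and 1.97), and Fgfr1 (1.78, edgeR adjusted p = 0.0721) and Egfr (1.20, edgeR adjusted p = 0.0523) were not. With B libraries alone, Met, Fgfr1, Fgfr4 and Egfr were called. Calls were fewer over all genes too: 350 of 16235 genes were higher with A libraries and 1844 of 16370 with B libraries. With all libraries it was 3403 of 17997.

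**Figure D3:**
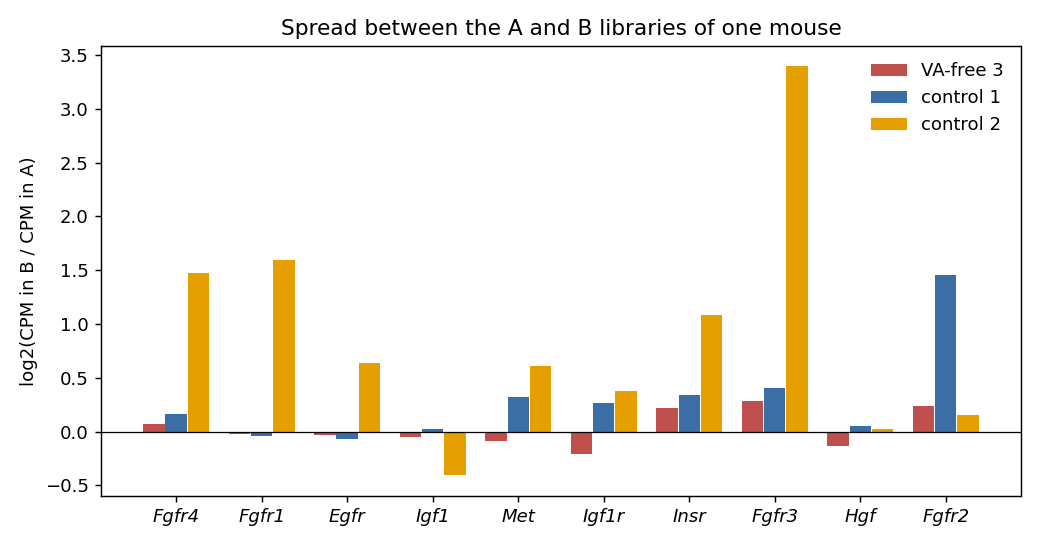
Log2 ratio of CPM in the B library to CPM in the A library of one mouse, for each member and the 3 mice with both libraries. Bars of VA-free 3 stay within -0.21 to 0.28, whereas control 2 reaches 3.40 for Fgfr3.

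The deposited estimates also divide each gene over its annotated transcripts, including those typed as retained intron, nonsense-mediated decay or processed transcript. Fgfr4 was nearly all one coding form, with 87.1% to 89.6% of its TPM on the VA-free diet and 93.2% to 99.3% on control chow. The share of transcripts not typed as protein coding was 10.4% to 12.9% and 0.704% to 6.84% for Fgfr4, 24.6% to 28.7% and 6.61% to 24.0% for Fgfr1, and 64.0% to 74.7% and 45.2% to 57.4% for Igf1r, in VA-free and control libraries. In these 3 genes every VA-free library lay above every control library. Hgf went the other way, with 14.9% to 28.8% against 29.8% to 45.9%. These shares were computed for the 10 members only. How many of all genes separate in this way is not known, so the pattern cannot be called particular to these members.

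For Insr, 1 retained-intron transcript held 78.5% to 90.7% of its TPM on the VA-free diet and 73.3% to 86.3% in 3 control libraries, but 7.35% in control 2A. Met was nearly all coding (at most 3.67% noncoding), and coding Igf1 transcripts held all of its TPM. Counted over coding transcripts alone, Fgfr4, Fgfr1, Fgfr3, Met and Egfr were still called. The files give no error for these shares.

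**Figure D4:**
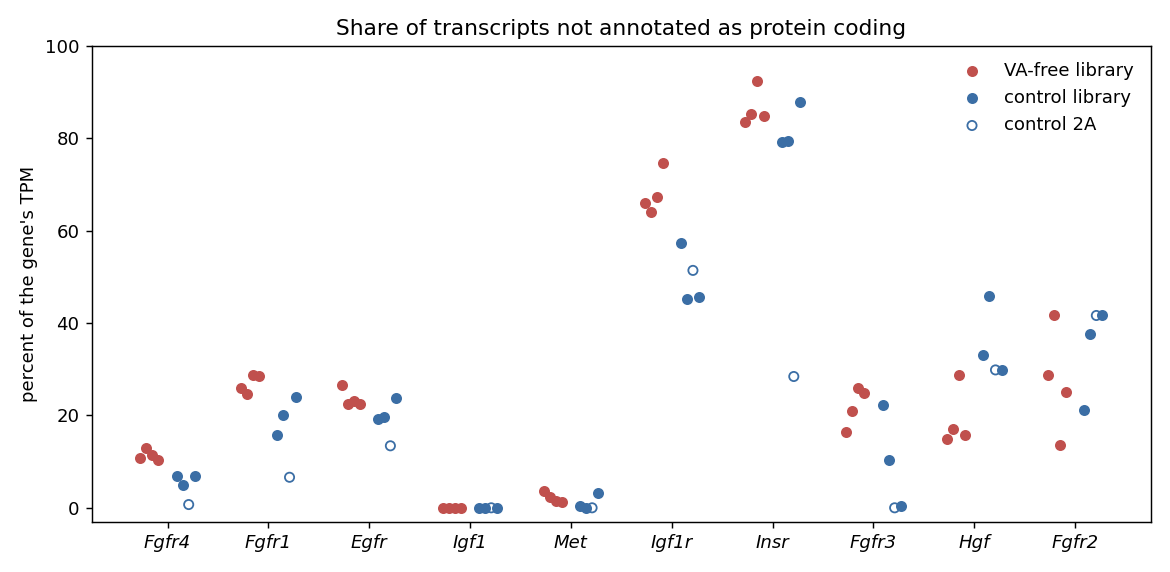
Percent of each member's TPM on transcripts not annotated as protein coding, by library (VA-free red, control blue, control 2A open). VA-free libraries lie above all control libraries for Fgfr4, Fgfr1 and Igf1r and below them for Hgf.

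Around these receptors 10 lists were set up, of ligands, co-receptors and signaling genes, 146 genes in all, of which 135 were tested. Of these, on the VA-free diet 50 were called higher and 25 lower, beside 18.9% and 22.5% of all genes tested, and the counts of each list below are to be read against these shares. Scaled to the MuSC markers the split was 6 higher and 66 lower, beside 2.32% and 57.2% of all genes tested. The directions below thus hold for TMM scaling. Genes whose sign turned are listed with the alternatives only for the abundant genes named from each list. For the other genes named, such as Cbl and Sh2b2, the sign on the MuSC marker scale is not given. Of each list the 4 most abundant genes are named, apart from some that are left out, and others, chosen after their values were seen, only to complete counts of 5 or fewer. Without control 2B the number called higher fell to 22, and over all genes it fell from 3403 of 17997 to 1613 of 17769.

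Among FGF ligands 10 of 14 genes could be tested, and 1 was higher and 4 lower (median log2 fold change -1.76). Fgf1, a ligand of all FGF receptors, fell by 3.43 ± 0.31 on the log2 scale, from 6.62 ± 0.414 TPM (SD, n = 2) to 0.751 ± 0.158 TPM (n = 3). Fgf7 (-1.957), Fgf9 (-2.40) and Fgf18 (-3.32), which are secreted ligands, were the other lower genes. These 3 were scarce, at 1.36, 0.741 and 0.247 TPM on the VA-free diet. On control chow they gave 3.51 ± 1.42, 2.44 ± 1.32 and 1.78 ± 0.787 TPM. Many markers of other cells were called lower too. Their part in these falls, and in those of Spint2 and Stc1 below, was not tested. The gene called higher, Fgf11 (0.96 ± 0.27, but -0.03 when scaled to MuSC markers), encodes an intracellular family member that does not act through these receptors. Fgf13, of the same intracellular group, gave 0.51 ± 0.24 and the secreted Fgf16 0.50 ± 0.20, and neither passed.

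Co-receptors include the cell surface proteoglycans that hold FGF at its receptor, and 6 of 12 of these genes were higher and 2 lower. Syndecan 4 (Sdc4), a satellite cell surface marker, was higher by 1.10 ± 0.13 on the log2 scale, glypican 1 (Gpc1) by 1.58 ± 0.14 and glypican 4 (Gpc4) by 1.01 ± 0.15. Sdc2 gave -0.01 ± 0.11, and its sign changed with the setting. The 2 lower genes were Sdc1 (-0.94) and Gpc3 (-2.10).

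In the list for HGF activation and MET signaling 2 of 10 tested genes were higher and 2 lower. Spint2, an inhibitor of the proteases that activate HGF, fell by 4.07 ± 0.33 on the log2 scale, from 48.0 ± 19.8 TPM to 3.04 ± 0.993 TPM. Gab1, the docking protein of MET, was higher by 0.88 ± 0.16 (-0.11 when scaled to MuSC markers), as was the ubiquitin ligase gene Cbl (0.85). The plasminogen activator genes gave 0.25 ± 0.16 for Plat, not called, and -0.78 for Plau, called lower. Adam10, a protease that sheds receptor ectodomains, gave 0.21 ± 0.13 and was not called.

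IGF ligands, binding proteins and receptors gave 2 higher and 5 lower of 13 tested. Igfbp4, which binds IGFs in the extracellular space, was higher (617 ± 25.5 TPM against 173 ± 41.2, log2 fold change 1.36 ± 0.19), as was Igf2r, which clears IGF2 (2.01). Igfbp6 (-1.56 ± 0.11), Igfbp7 (-1.99 ± 0.27), Igfbp3 (-1.01), Igf2 (-0.62) and Stc1 (-5.26) were lower. Igfbp5 (0.31 ± 0.19) was not called. Igfbp7 is also abundant in endothelial cells, whose 10 markers were all called lower; their part in the result was not tested.

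Of the adaptors beneath the IGF1 and insulin receptors, 5 of 7 tested genes were higher and 1 lower. Irs2 rose by 1.48 ± 0.17 on the log2 scale (255 ± 35.2 TPM against 69.6 ± 6.41), Sh2b1 by 1.00 ± 0.15 and Shc1 by 0.54 ± 0.14 (-0.45 when scaled to MuSC markers), and Irs1 (1.44) and Sh2b2 (0.85) were the others. Grb10, an inhibitory adaptor, gave 0.59 ± 0.34 and was not called, and Grb14, of the same family, was lower (-2.49).

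In the EGF family 6 of 16 genes were higher and 2 lower. Lrig1, a negative regulator of EGFR, rose by 1.87 ± 0.13 (159 ± 3.50 TPM against 40.2 ± 8.08), Errfi1, another EGFR inhibitor, by 0.71 ± 0.18 and Adam17, which sheds EGFR ligands, by 0.47 ± 0.15, of which the last 2 stood at -0.29 and -0.52 when scaled to MuSC markers. Hbegf, the most abundant ligand gene of the list, fell by 0.94 ± 0.15 (89.04 ± 5.86 TPM against 147 ± 25.5), and Tgfa was the second lower gene (-1.66).

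In the RAS-MAPK list 7 of 19 genes were higher and 2 lower. The kinase genes Araf (0.35 ± 0.13) and Map2k2 (0.12 ± 0.11) were not called. Ptpn11, which encodes the phosphatase SHP2, was among the lower genes (-0.58).

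The PI3K-AKT-FOXO list gave 11 higher and 3 lower of 21. Akt2 rose by 1.16 ± 0.15 and Tsc2, an inhibitor of mTORC1, by 1.20 ± 0.13, while Akt1 (0.55 ± 0.22) was not called. Rheb, the activator of mTORC1 that Tsc2 restrains, fell by 1.06 ± 0.16, with Pik3cb (-1.55) and Pik3r3 (-1.27) the other lower genes.

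Feedback inhibitors gave 4 higher and 1 lower of 15. Spry1, the Sprouty gene linked to return to quiescence and also one of the 10 MuSC markers, rose by 0.69 ± 0.13 (641 ± 27.0 TPM against 295 ± 12.3; -0.30 when scaled to MuSC markers), and Socs3 by 1.27 ± 0.21. Spry4 (1.10) and Spred1 (1.16) were the others. Socs2 fell by 0.82 ± 0.11, and Ptpn1 gave 0.13 ± 0.13 and was not called.

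Of 12 MAPK-responsive transcription factor genes 6 were higher and 3 lower. Egr1 rose by 0.68 ± 0.20 (-0.31 when scaled to MuSC markers). Fos fell by 0.41 ± 0.13 on counts but gave 0.00 on TPM (8386 ± 862 and 8356 ± 523) and 0.01 with the length trend removed. Jun (-0.13 ± 0.15) and Myc (0.48 ± 0.16) were not called. Etv1 (-0.83) and Elk3 (-1.72) were the other lower genes. These genes also respond to tissue dissociation, and in the dissociation and immediate early list 3 of 14 were called higher and 3 lower, with summed levels of 27354 to 31310.5 TPM in VA-free and 16669 to 25237 TPM in control libraries; their part in the result was not tested.

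**Figure D5:**
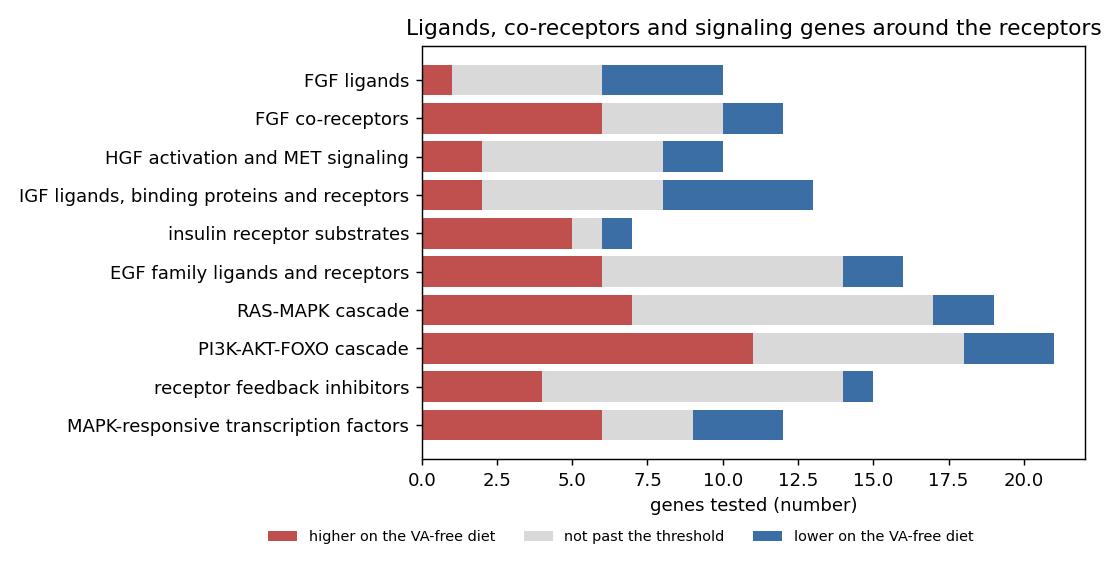
Number of tested genes in each of the 10 lists around the receptors, called higher on the VA-free diet (red), not past the threshold (gray) or called lower (blue) by edgeR at an adjusted p of 0.05. FGF ligands and the IGF list hold more lower than higher calls, with 1 against 4 and 2 against 5.

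Of the 10 members 8 had promoter windows in the RefSeq table (GRCm38.p6), each 300 bases long around the start of a transcript, and Fgfr1 and Insr did not match an entry. The motifs searched were 4, on both strands: the GC box GGGCGG, bound by SP1 and its relatives, the nuclear receptor motif AGGTCA, which retinoic acid receptors share with others, its direct repeat with 5 bases between, and the E-box CAGCTG, bound by myogenic factors. The promoters of Fgfr4 and Met are shown because these members rose and carried the most GC boxes besides Fgfr3, which are in capitals, and that of Igf1 because it held AGGTCA and the E-box, in capitals and overlapping. The windows are chr13:55152568-55152867 for Fgfr4, chr6:17463707-17464006 for Met and chr10:87860861-87861160 for Igf1, all on the plus strand.
Fgfr4 promoter: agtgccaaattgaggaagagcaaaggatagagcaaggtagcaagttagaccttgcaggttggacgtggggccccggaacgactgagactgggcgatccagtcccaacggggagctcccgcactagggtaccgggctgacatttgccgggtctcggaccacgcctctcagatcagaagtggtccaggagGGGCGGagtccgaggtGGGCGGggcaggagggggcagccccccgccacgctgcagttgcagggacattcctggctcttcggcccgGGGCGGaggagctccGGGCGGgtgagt
Met promoter: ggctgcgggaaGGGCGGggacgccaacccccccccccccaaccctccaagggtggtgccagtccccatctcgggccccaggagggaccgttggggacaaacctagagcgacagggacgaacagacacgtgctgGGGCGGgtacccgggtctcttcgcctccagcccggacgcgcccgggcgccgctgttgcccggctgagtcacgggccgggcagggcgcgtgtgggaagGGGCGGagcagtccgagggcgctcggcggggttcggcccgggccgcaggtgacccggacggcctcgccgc
Igf1 promoter: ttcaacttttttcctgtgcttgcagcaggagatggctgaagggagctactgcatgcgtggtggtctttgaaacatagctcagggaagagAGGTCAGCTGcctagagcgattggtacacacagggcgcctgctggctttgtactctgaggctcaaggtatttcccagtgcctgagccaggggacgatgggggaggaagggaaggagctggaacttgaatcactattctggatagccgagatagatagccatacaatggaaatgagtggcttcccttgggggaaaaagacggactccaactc

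The GC box occurred in windows of Fgfr4 (4 copies), Met (3), Igf1r (2), Egfr (1) and both windows of Fgfr3 (4 and 2), and in none of Hgf, Fgfr2 or Igf1. It was found in 35.7% of all 32851 windows and in 56.5% of the 15872 windows of tested genes, with 67.9% for genes called higher and 55.0% for genes called lower. The windows of Igf1r (76.0% G or C) and Met (75.7%) were the richest in G and C among the members and that of Fgfr2 (43.7%) the poorest, beside a median of 52.7% over all windows. The motif AGGTCA was found in Igf1r and Igf1, and in 16.3% of all windows. No member window held the direct repeat, which occurred in 0.00913% of all windows. CAGCTG was found in Igf1 and Fgfr3, and in 16.3% of all windows. These matches are descriptions of letters in a window, and no binding was measured.

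The genes whose log2(CPM + 1) followed the 3 most abundant members most closely over the 8 libraries were taken from 9598 genes whose mean reached 10 CPM. For Fgfr4 these were Parg (Pearson r 0.999), Tgfbr3 (0.998) and Ncoa1 (0.998). For Fgfr1 they were St3gal2, Robo1 and Atxn2, each at 0.998, and for Egfr Pkd2 (0.994), Dcaf5 (0.992) and Ddx3x (0.992). All of these points share the difference between the diets and the low value of control 2A, so that the correlations describe these 8 libraries only.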

How the data were processed

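RNA from sorted nGFP+ cells was made into cDNA with a low-input full-length kit (SMART-Seq v4), tagmented with Nextera XT and sequenced as 75 bp single-end reads. The authors quantified transcripts with Kallisto 0.46.2 against GRCm38 transcripts and deposited an estimated count and a TPM value for each of 118489 transcripts in each library, of which 116816 matched a gene (0.647% to 0.756% of counts did not). Deposited TPM are scaled to transcript length and library.

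Estimated counts were summed per gene and mouse, rounded to whole numbers, filtered with filterByExpr (17997 genes), TMM-scaled and tested with edgeR 4.0.16 (glmQLFit, glmQLFTest; R 4.3.3) with Benjamini-Hochberg adjustment, VA-free (3 mice) against control (2 mice). Technical libraries A and B of a mouse count once, and error is the SD over mice or the SE of the fit. Alternatives used DESeq2 1.42.0, limma 3.58.1 (log2 of TPM plus 1 or 0.1), other scalings, filters, libraries and left-out mice. The scaling to 10 MuSC markers and the count of protein-coding transcripts alone were added after seeing the data. The members and lists were chosen with earlier results of these data known. Named were all 10 members, the 4 most abundant genes of each list and the 3 genes most like each of the 3 most abundant members. The script was tested on simulated data. Some genes and sequences are not reported here. Replicate numbers were not taken to pair mice.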

Additional observations from a re-analysis of the deposited data

Results flagged for a closer look

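Fgfr2 in control libraries stood out for 1 library far from the others: control 1B gave 9.29 CPM against 3.39, 3.50 and 3.88 CPM in the others, a gap of 0.918 of the range of the group. Igf1 in VA-free libraries stood out in the same way, with 54.6 CPM in VA-free 2A against 101 to 105 CPM in the others and a gap of 0.932 of the range. Among 20 groups of 4 libraries examined (10 genes in 2 diets), about 1 in 20 would stand out by chance if the 4 values were independent, which the A and B libraries of one mouse are not. Their causes were not tested.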

How the results depend on the processing

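Over 28 alternatives Fgfr4 kept its call in all, Met and Fgfr1 in 27, Egfr in 26, Fgfr3 in 24 and Igf1r in 17 with its direction. With A libraries alone Egfr (1.20), Fgfr1 (1.78), Fgfr3 (2.43) and Igf1r (0.68) lost the call and 2 members were called higher. There 7 list genes were called higher and 5 lower, beside 350 higher and 911 lower of all 16235 genes. Insr gave 0.00, Plat -0.00, Adam10 -0.18 and Sdc2 0.07. With B libraries alone Fgfr3 (1.03) and Igf1r (0.25) lost the call, and Fgfr2 (-0.11), Igfbp5 (-0.25) and Ptpn1 (-0.01) turned. There 32 list genes were called higher, beside 1844 of all 16370 genes. The first library of each mouse gave 29 list genes higher (2156 of all 16667 genes), Insr 0.17, Adam10 -0.05 and Sdc2 0.09. On TPM with a pseudocount of 1 and 0.1 (median of all genes 0.19 and 0.35; 5799 higher and 2637 lower with 1) Hgf was called (0.75 and 0.97), and Insr (0.40 and 0.43), Jun (0.31 and 0.31), Sdc2 (0.42 and 0.43) and Fos (0.00 in both) turned. Length offsets gave Insr 0.35 and Sdc2 0.03. Removing the length trend gave Igf1r 0.14, not called, Adam10 -0.07, Fos 0.01 and Igfbp5 -0.06. Coding transcripts alone gave Igf1r 0.28, not called.

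Scaled to MuSC markers, Met (0.34), Fgfr3 (0.48) and Egfr (0.02) lost the call, Igf1 (-1.31) and Insr (-1.18) gained one, and Hgf (-0.29), Fgfr2 (-0.75) and Igf1r (-0.49) turned. Members called were 2 higher and 3 lower, and list genes 6 higher and 66 lower, beside 418 higher and 10297 lower of all genes. Among the abundant genes named from each list, those that turned were Adam10 (-0.77), Adam17 (-0.52), Akt1 (-0.44), Araf (-0.64), Egr1 (-0.31), Errfi1 (-0.29), Fgf11 (-0.03), Fgf13 (-0.48), Fgf16 (-0.49), Gab1 (-0.11), Grb10 (-0.41), Igfbp5 (-0.67), Map2k2 (-0.87), Myc (-0.51), Plat (-0.74), Ptpn1 (-0.86), Shc1 (-0.45) and Spry1 (-0.30). The other list genes were not examined for their sign.

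Leaving out 1 mouse or library at a time gave -0.15 to 0.75 for Fgfr2, 0.98 to 2.25 for Fgfr3, 0.37 to 0.64 for Igf1r, -0.43 to 0.05 for Insr, -0.10 to 0.08 for Sdc2, -0.06 to 0.41 for Adam10, -0.02 to 0.22 for Map2k2, -0.33 to 0.08 for Jun, and 22 to 51 list genes called higher, lowest without control 2B. Deviations of same-numbered mice from the mean of their diet correlated at -0.022 and 0.0058. With only 2 control mice their deviations mirror each other, so this check cannot exclude that the numbers pair mice. A replicate block called 5242 genes against 7459 and left Igf1r at 0.53, not called (adjusted p = 0.0912).

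As shares of estimated counts in place of TPM, the share of the leading transcript of each gene on the VA-free diet became 62.1% for Met, 22.1% for Fgfr1, 43.2% for Fgfr2, 23.4% for Fgfr3, 98.2% for Fgfr4, 18.6% for Igf1, 77% for Igf1r, 35.2% for Egfr and 49.3% for Insr, since TPM weights short transcripts more. The causes of the other changes were not tested. Few mice (3 and 2) limit the precision, and Fgfr2, Fgfr3 and Hgf rest on few counts.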
